A study of Mus musculus with 6 samples.

Results

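Cytochrome P450 genes of families 1 to 3 were described in liver tumours of male mice, on 6 arrays. Every gene whose platform symbol begins with Cyp1, Cyp2 or Cyp3 followed by a letter was taken, whatever its values. Where a gene had several probe sets, the brightest by mean level stood for it. This gave 39 genes out of 12393, measured by 46 probe sets, in 12 subfamilies. A further 2 probe sets of these families carry several gene symbols and were left out, so Cyp2a4, Cyp2a5 and Cyp3a41a are not analysed here, and neither are Cyp2c40, Cyp2r1 and Cyp2u1.

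The study compared 3 tumours of wild-type mice with 3 tumours of Alb/AEG-1 transgenic mice, each on its own Affymetrix array. AEG-1 (astrocyte elevated gene-1) is the product of the gene Mtdh. The transgene was a microinjected 5.3-kb fragment of a construct named Alb/AEG-1, where Alb is taken to stand for albumin, a gene active in hepatocytes. The males of both groups had been given N-nitrosodiethylamine (DEN), a liver carcinogen, once by intraperitoneal injection when 14 days old (10 µg per g), and their tumours were taken at 28 weeks. The labels give the background strain as CD-1, while the injected embryos came from B6CBAF1/J matings, and the number of founder lines is not stated. No tumour-free or untreated liver was compared. Replicates are numbered in the order of the samples, and the titles also carry numbers, taken here as animal numbers: wild-type replicate 1 and both Alb/AEG-1 replicates 1 and 2 carry lower numbers, the other 3 arrays higher ones. What the ranges stand for is not stated. Each holds both genotypes, but unequally: the lower has 1 wild-type and 2 Alb/AEG-1 arrays, the higher 2 wild-type and 1 Alb/AEG-1. Genotype differences over all arrays are thus partly mixed with the range. A difference among lower or among higher numbers rests on a single array of 1 genotype. The difference of Mtdh itself was 0.20 log2, and whether its mouse probe set detects the transgene is not known.

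Enzymes of these families sit in the endoplasmic reticulum, bind haem and insert an oxygen atom into drugs, carcinogens, steroids and fatty acids, with electrons supplied by P450 oxidoreductase. Hepatocytes make most of them, many chiefly around the central vein, and several are induced through receptors for foreign chemicals: AHR for Cyp1, CAR (gene Nr1i3) for Cyp2b and PXR (gene Nr1i2) for Cyp3a. In mice many are also made mainly in one sex. Cyp2e1 is known as the main enzyme that activates DEN in hepatocytes.

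No P450 gene of families 1 to 3 differed between the genotypes past an adjusted p of 0.05. Most were slightly lower in Alb/AEG-1 tumours: 32 of 39 had a difference below 0 and 7 above, where 52.2% of all genes had a difference below 0. The 32 became 28 with the number range as a term and 24 without Alb/AEG-1 replicate 1. Many of the 39 genes are close relatives, and several had the same arrays lowest in the same order, so their signs are not independent. The median difference (Alb/AEG-1 minus wild type) was -0.085 log2, beside -0.0081 over all genes. Within the lower animal numbers that median was -0.061 and within the higher -0.019. The lowest differences were those of Cyp2c37 (-0.86 log2), Cyp2b10 (-0.84) and Cyp2c54 (-0.84), and the highest was that of Cyp2c39 (0.51). Values are levels on the log2 scale, and no level is compared between genes, since probe sets differ in how well they bind. Array values are given in the order of replicates 1 to 3, and where 2 sets are joined by "against", wild type comes first.

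In limma, with p-values adjusted by Benjamini-Hochberg across 22626 probe sets, 0 of the 39 genes passed (beside 0% of all genes), and 0 passed with limma-trend. Over all probe sets 1 passed. At an unadjusted limma p below 0.05 there were 4 genes lower in Alb/AEG-1 tumours (10.3% of the 39, beside 4.47% of all genes) and 0 higher (beside 3.86%). The lower genes were Cyp2c68, Cyp3a44, Cyp2s1 and Cyp1a2. The count of 4 was 2 without Alb/AEG-1 replicate 1 or without wild-type replicate 3, 7 without Alb/AEG-1 replicate 3 and 8 without wild-type replicate 1. Over all probe sets the lower count went from 991 to 622, 678, 955 and 1303 in the same order. All 3 Alb/AEG-1 arrays lay below all 3 wild-type arrays in 7 genes (17.9%, beside 8.31% of all genes) and above them in 1 gene (2.56%, beside 6.77%). The first were Cyp1a2, Cyp2b19, Cyp2c68, Cyp2f2, Cyp2j13, Cyp2s1 and Cyp3a44, and the last was Cyp2c70. Among the first, Cyp2b19, Cyp2j13, Cyp2s1 and Cyp3a44 lie below the median of all values on the arrays, 5.83. For these 8 genes with separated groups, the count was 19 without Alb/AEG-1 replicate 3 and 16 without wild-type replicate 1, while over all probe sets it went from 3319 to 6296 and 7043. In tumour tissue, fewer cells of a type and less RNA per cell cannot be told apart.

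**Figure D1:**
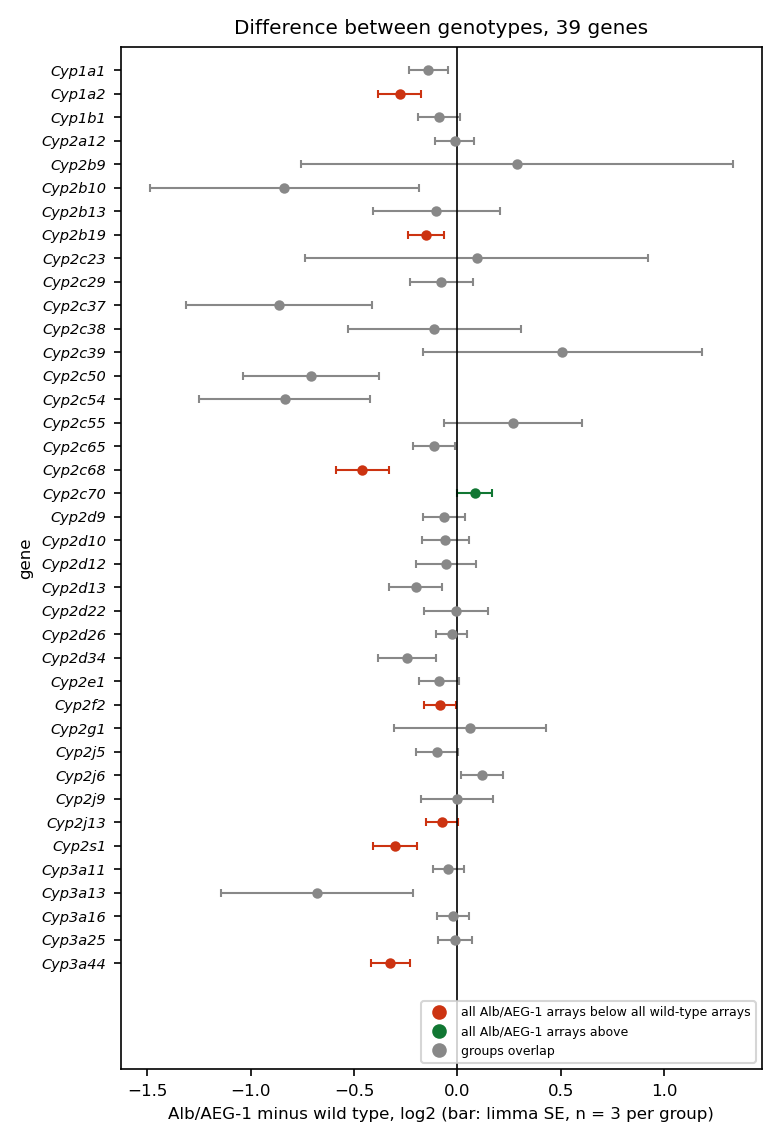
Difference in log2 level between Alb/AEG-1 and wild-type tumours for the 39 P450 genes of families 1 to 3, with limma standard errors (3 arrays per group). Most points lie slightly left of 0, red points are the 7 genes whose Alb/AEG-1 arrays all lie below the wild-type arrays, and the widest bars are those of Cyp2b9, Cyp2c23, Cyp2c39 and Cyp2b10.

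In family 1, whose members oxidise planar aromatic compounds and are induced through AHR, Cyp1a2 was lower in Alb/AEG-1 tumours without overlap. Cyp1a2, which hepatocytes make constitutively, was at 12.07, 12.10 and 12.32 in wild-type and at 11.79, 11.83 and 12.01 in Alb/AEG-1 tumours. Every Alb/AEG-1 array lay below every wild-type array, with the nearest pair close together. The difference was -0.28 ± 0.10 log2 (SE; 1.21-fold; limma, unadjusted p = 0.0299, adjusted p = 0.611), -0.25 among lower and -0.19 among higher animal numbers. With the number range as a term it was -0.22 ± 0.10 (limma, unadjusted p = 0.0579). The unadjusted limma p also rose above 0.05 without wild-type replicate 3, Alb/AEG-1 replicate 1 or Alb/AEG-1 replicate 2. Cyp1a1, nearly silent in liver without an inducer, was at 3.99, 4.21 and 4.13 against 3.87, 4.06 and 3.98, so the groups overlapped. Cyp1b1, made mainly outside hepatocytes, was at 4.72, 4.46 and 4.78 against 4.58, 4.54 and 4.57, and its 3 probe sets differed by -0.10 to -0.043. Both of these genes lie below the median of all values on the arrays, 5.83, as do 11 of the 39 genes.

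Subfamily Cyp2a was represented by Cyp2a12, a steroid hydroxylase, at 11.96, 12.01 and 12.21 against 12.08, 12.06 and 12.00. Its groups overlapped and differed by -0.014 ± 0.094 log2.

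Subfamily Cyp2b holds Cyp2b10, the classical target of the receptor CAR, and Cyp2b9 and Cyp2b13, which are made mainly in female liver. These 3 genes varied widely between animals of 1 genotype. Cyp2b10 was at 6.77, 7.35 and 7.91 in wild-type and at 5.32, 6.11 and 8.09 in Alb/AEG-1 tumours. The lowest and the highest of the 6 values were both Alb/AEG-1, and the difference was -0.84 ± 0.65 log2 (limma, adjusted p = 0.717). It was -1.06 among lower and 0.46 among higher animal numbers. All 3 probe sets of Cyp2b10 had a difference below 0, from -0.94 to -0.63.

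Cyp2b9 covered the widest span of the 39 genes, 4.45 log2 between its lowest and highest tumour. It was at 4.46, 6.93 and 8.91 in wild-type and at 5.88, 7.27 and 8.01 in Alb/AEG-1 tumours (all mice were male). Its wild-type SD was 2.23 (n = 3) and its difference 0.29 ± 1.05 log2, with groups that overlapped. Cyp2b13 was at 5.51, 6.26 and 6.60 against 5.72, 5.82 and 6.53, a span of 1.09, and differed by -0.10 ± 0.31. In Cyp2b13 the 3 arrays of the higher animal numbers were the 3 highest, and in Cyp2b9 Alb/AEG-1 replicate 2 of the lower numbers stood above wild-type replicate 2. Cyp2b19, known from skin, was between 2.85 and 3.17.

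The windows of 250 bases before the start of Cyp2b9 and Cyp2b13 are shown because both genes are female-predominant and varied here by different amounts. They were taken from RefSeq on GRCm38.p6, plus strand, at chr7:26173159-26173408 for Cyp2b9 and chr7:26061245-26061494 for Cyp2b13. They are identical at 248 of 250 bases, and capitals mark the 2 bases that differ.
Cyp2b9: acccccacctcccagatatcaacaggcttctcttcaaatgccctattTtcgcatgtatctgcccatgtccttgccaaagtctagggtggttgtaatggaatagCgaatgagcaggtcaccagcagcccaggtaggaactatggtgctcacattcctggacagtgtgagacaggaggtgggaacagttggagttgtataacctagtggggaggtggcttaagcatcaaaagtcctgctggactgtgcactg
Cyp2b13: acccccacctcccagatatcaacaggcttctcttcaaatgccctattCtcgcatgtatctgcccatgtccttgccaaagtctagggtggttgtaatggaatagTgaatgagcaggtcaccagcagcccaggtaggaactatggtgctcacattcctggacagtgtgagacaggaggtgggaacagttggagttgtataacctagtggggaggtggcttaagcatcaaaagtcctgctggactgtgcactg
The unequal spans of both genes (4.45 and 1.09 log2) thus stand beside nearly the same letters. How far each probe set also binds the other transcript was not tested.

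The same window of Cyp2b10, chr7:25897408-25897657 on the plus strand, is shown as that of the classical CAR target. Capitals mark matches to the motifs searched on both strands, here GCGTG, the core bound by the AHR complex, and TTATGCAA, a form of basic leucine zipper site.
Cyp2b10: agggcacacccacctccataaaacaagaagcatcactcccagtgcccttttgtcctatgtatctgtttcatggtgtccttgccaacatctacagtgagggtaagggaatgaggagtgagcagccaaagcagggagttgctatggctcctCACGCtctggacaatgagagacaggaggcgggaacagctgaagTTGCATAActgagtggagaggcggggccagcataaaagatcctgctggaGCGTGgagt
GCGTG was found in 28.2% of all 32851 RefSeq windows of this length and TTATGCAA in 0.694%. Of the 39 genes, 32 had windows in the table, 35 windows in all, and TTATGCAA was in 2 of them, those of Cyp2b10 and Cyp2b19. The distal element through which CAR acts on Cyp2b10 lies outside this window.

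Subfamily Cyp2c, with 11 genes the largest here, holds enzymes that oxidise fatty acids and drugs, encoded on chromosome 19. Cyp2c68 had the smallest p of the 39 genes. It was at 11.77, 11.70 and 11.82 in wild-type and at 11.25, 11.08 and 11.56 in Alb/AEG-1 tumours. The wild-type arrays were close together (SD 0.059, n = 3), and every Alb/AEG-1 array lay below them. The difference was -0.46 ± 0.13 log2 (SE; 1.38-fold; limma, unadjusted p = 0.00776, adjusted p = 0.596), -0.60 among lower and -0.19 among higher animal numbers. It lay between -0.59 and -0.35 when any 1 array was left out.

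Cyp2c37, Cyp2c54 and Cyp2c50 follow each other in gene order, and the same tumours were low in all 3. Cyp2c37, an arachidonic acid hydroxylase, was at 11.12, 11.97 and 12.13 in wild-type and at 10.11, 10.64 and 11.87 in Alb/AEG-1 tumours. Cyp2c54 was at 11.45, 12.27 and 12.21 against 10.49, 10.82 and 12.11, and Cyp2c50 at 12.32, 13.14 and 12.86 against 11.56, 11.85 and 12.78. In each of the 3 genes Alb/AEG-1 replicate 1 was lowest, then Alb/AEG-1 replicate 2, then wild-type replicate 1, and the 3 arrays of the higher animal numbers stood above all of these. Cyp2b10, on chromosome 7, had the same 3 lowest arrays in the same order, and so did Cyp2d9, Cyp2d12, Cyp2d22 and Cyp3a11.

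Genotype differences were -0.86 ± 0.45 log2 for Cyp2c37, -0.84 ± 0.41 for Cyp2c54 and -0.71 ± 0.33 for Cyp2c50 (limma, adjusted p = 0.638, 0.634 and 0.627), and the groups overlapped in each. In a limma model with the number range added they were -0.46 ± 0.19, -0.46 ± 0.17 and -0.42 ± 0.15. There the unadjusted limma p were 0.0441, 0.0313 and 0.0260, and the adjusted limma p 0.748, 0.735 and 0.732. The higher numbers stood above the lower by 1.21 ± 0.19, 1.12 ± 0.17 and 0.88 ± 0.15 log2 in that model. Among lower numbers the genotypes differed by -0.74, -0.80 and -0.61, and among higher numbers by -0.18, -0.13 and -0.22. Cyp2c54 was named after its values were seen. These genes are close relatives, and binding of a probe set to more than 1 of their transcripts was not tested.

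**Figure D2:**
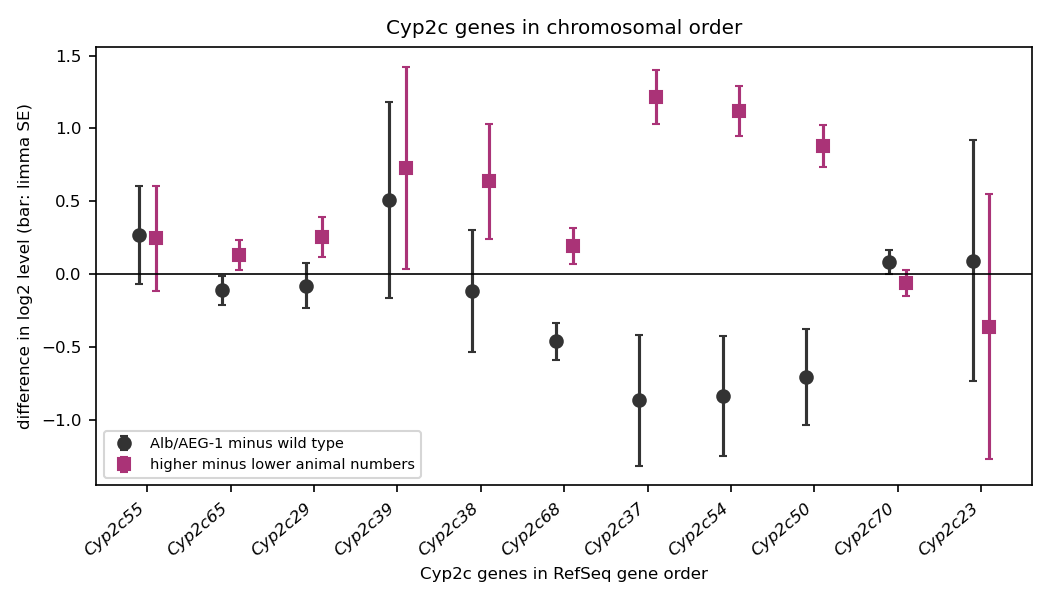
Cyp2c genes in RefSeq gene order along chromosome 19, with the genotype difference (dark circles) and the difference between higher and lower animal numbers from the model with both terms (purple squares), each with its limma standard error. Cyp2c37, Cyp2c54 and Cyp2c50 stand together, low in the genotype difference and 0.88 to 1.21 high in the animal number term, while their neighbour Cyp2c70 is near 0 in both.

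The windows before Cyp2c37 (chr19:39992174-39992423) and Cyp2c50 (chr19:40089429-40089678, both on the plus strand of GRCm38.p6, from RefSeq) are shown because both genes were low in the same tumours. An alignment of both windows had 215 identical bases, 84.3% of its columns, more than any other Cyp2c pair compared. Capitals mark the bases that differ or stand against a gap.
Cyp2c37: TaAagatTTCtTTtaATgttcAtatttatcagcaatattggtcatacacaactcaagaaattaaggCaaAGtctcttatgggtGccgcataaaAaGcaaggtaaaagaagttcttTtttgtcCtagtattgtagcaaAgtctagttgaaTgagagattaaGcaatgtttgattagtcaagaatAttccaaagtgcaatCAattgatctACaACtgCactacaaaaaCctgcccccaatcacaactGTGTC
Cyp2c50: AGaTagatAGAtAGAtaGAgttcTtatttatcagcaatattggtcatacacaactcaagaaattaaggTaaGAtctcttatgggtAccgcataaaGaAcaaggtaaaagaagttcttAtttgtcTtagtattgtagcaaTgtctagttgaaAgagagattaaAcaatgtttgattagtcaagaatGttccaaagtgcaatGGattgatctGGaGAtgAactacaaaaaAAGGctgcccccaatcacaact
Neither window holds any motif searched. Among the 35 windows of P450 genes, TATAAA, the letters of the TATA box, was in 16 (12.4% of all windows), at any position and on either strand. In Cyp2c65, Cyp2j5, Cyp3a11, Cyp3a16 and Cyp3a44 the match began 122 to 234 bases before the start. AGGTCA, a nuclear receptor half-site, was in 12 (14.0%) and GCGTG in 7. CAAAGTCCA, an HNF4 site, was in 5 (0.384% of all windows), those of Cyp2c65, Cyp2c68, Cyp2c70, Cyp3a11 and Cyp3a16. The D-box TTATGTAA was in 0 (0.819%), its relative TTACGTAA in 0 (0.113%) and the STAT site TTCNNNGAA in 0 (7.02%). Windows of related genes share letters, so these counts are not independent.

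Differences of the other Cyp2c genes lay on both sides of 0. Cyp2c70, an enzyme that makes the muricholic acids of mouse bile, was at 13.00, 12.95 and 12.98 in wild-type and at 13.01, 13.16 and 13.01 in Alb/AEG-1 tumours, higher without overlap but by only 0.082 ± 0.082 log2. Cyp2c29, a constitutive member that is induced through CAR, was at 12.97, 12.88 and 13.29 against 12.80, 12.87 and 13.23 and differed by -0.079 ± 0.15, with overlap.

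Cyp2c39 was at 7.12, 5.80 and 8.32 against 7.48, 6.68 and 8.60 and differed by 0.51 ± 0.67 log2. Cyp2c38 was at 7.55, 7.09 and 8.65 against 7.40, 7.26 and 8.29 and differed by -0.11 ± 0.42. In both genes, which are neighbouring members in gene order, wild-type replicate 3 and Alb/AEG-1 replicate 3 were the 2 highest tumours. Cyp2c55, known from intestine, was at 7.65, 7.04 and 7.09 against 6.85, 7.50 and 8.24, with overlap and a difference of 0.27 ± 0.33. Cyp2c23 (also named Cyp2c44), an epoxygenase of arachidonic acid, was at 8.72, 10.90 and 7.96 in wild-type and at 8.84, 10.69 and 8.34 in Alb/AEG-1 tumours. Wild-type replicate 2 and Alb/AEG-1 replicate 2 stood apart from the other 4 arrays in Cyp2c23, and the genotypes differed by 0.092 ± 0.83. Cyp2c65, another intestinal member, was between 2.87 and 3.18. Cyp2b10, Cyp2c23 and Cyp2c65 are represented by probe sets of a type that may bind several transcripts.

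Subfamily Cyp2d, relatives of the human debrisoquine hydroxylase, held no gene with a span of 1 log2 or more between its lowest and highest tumour. All 7 genes had differences below 0 (where 52.2% of all genes did), from -0.25 to -0.0071. Separated groups were found in 0 of the 7 (beside 8.31% of all genes lower and 6.77% higher). With the number range in the model 5 of 7 were below 0, with Cyp2d12 at 0.038 and Cyp2d22 at 0.11. Without Alb/AEG-1 replicate 1, Cyp2d10 (0.044), Cyp2d12 (0.062) and Cyp2d22 (0.11) were above 0. Cyp2d22 was also above 0 with each array centred on its median (0.0054). Cyp2d9, a testosterone hydroxylase made mainly in male liver, was at 13.13, 13.30 and 13.23 in wild-type and at 13.03, 13.12 and 13.32 in Alb/AEG-1 tumours, with overlap. Cyp2d10 was at 12.85, 12.83 and 12.90 against 12.59, 12.81 and 13.00. Cyp2d26 was at 12.73, 12.75 and 12.79 against 12.70, 12.73 and 12.76, the narrowest span of the 39 genes (0.090 log2). Cyp2d22 was at 9.93, 10.07 and 10.17 against 9.83, 9.93 and 10.40, and its probe sets differed by -0.0071 and 0.018, the only gene with several probe sets whose signs were opposite. In each of these genes the groups overlapped. Cyp2d13, a transcribed pseudogene in RefSeq, differed by -0.20 ± 0.13 and Cyp2d34 by -0.25 ± 0.14, the latter at levels of 3.82 to 4.31. Cyp2d12 was between 4.89 and 5.44.

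Among the remaining Cyp2 genes, the DEN-activating enzyme Cyp2e1 was at 13.91, 14.07 and 14.06 in wild-type and at 13.89, 13.82 and 14.05 in Alb/AEG-1 tumours (-0.091 ± 0.10 log2), with overlap. Cyp2f2, a naphthalene-activating enzyme of periportal hepatocytes, was at 13.25, 13.25 and 13.35 against 13.20, 13.21 and 13.20, separated by a difference of only -0.085 ± 0.077. Markers of lung club cells, another site of Cyp2f2, averaged 4.45 to 4.61 in wild-type and 4.39 to 4.43 in Alb/AEG-1 tumours. All 4 of these genes had differences below 0 (where 52.2% of all genes did) and lie below the array median, 5.83. Their part in the Cyp2f2 difference was not tested. Cyp2s1, known from epithelia outside the liver, was at 4.73, 4.83 and 4.84 against 4.33, 4.68 and 4.48, separated, with a difference of -0.30 ± 0.11 (limma, unadjusted p = 0.0236, adjusted p = 0.604). That unadjusted limma p rose above 0.05 without wild-type replicate 2 or 3 and without Alb/AEG-1 replicate 1 or 3. The levels of Cyp2s1 lie below the array median. Cyp2g1, an olfactory enzyme, was at 4.55, 5.53 and 4.91 against 4.45, 4.90 and 5.83, with overlap.

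Of the Cyp2j genes, which include epoxygenases of arachidonic acid, Cyp2j5 was at 11.71, 11.82 and 11.87 against 11.79, 11.54 and 11.77. Cyp2j6 was at 7.91, 7.83 and 7.82 against 7.81, 8.13 and 7.98 and had the smallest p among the 7 genes with a positive difference, 0.12 ± 0.10 log2 (limma, unadjusted p = 0.285). The groups overlapped in both. Cyp2j9 differed by -0.0028 ± 0.17 and Cyp2j13 by -0.076 ± 0.076, the latter with separated groups at levels of 3.07 to 3.23.

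In subfamily Cyp3a, which oxidises steroids, bile acids and many drugs, 5 of 5 genes had differences below 0 (where 52.2% of all genes did). Of these, Cyp3a25 lay at 0.00013 with each array centred on its median. Without Alb/AEG-1 replicate 1, Cyp3a16 (0.0043) and Cyp3a25 (0.0096) were above 0, as was Cyp3a25 without wild-type replicate 1 (0.030). Cyp3a11, the main PXR target of mouse liver, was at 14.19, 14.22 and 14.22 in wild-type and at 14.12, 14.16 and 14.22 in Alb/AEG-1 tumours, with a difference of -0.044 ± 0.076 log2. Cyp3a25 was at 13.16, 13.02 and 13.04 against 13.02, 13.10 and 13.07. Both had groups that overlapped. Cyp3a44, made mainly in female liver, was at 5.12, 5.13 and 5.29 against 4.77, 4.97 and 4.82. Its groups were separated, with a difference of -0.32 ± 0.094 (1.25-fold; limma, unadjusted p = 0.00964, adjusted p = 0.596), -0.25 among lower and -0.39 among higher animal numbers. Its levels lie below the array median.

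Cyp3a13 was at 9.88, 10.02 and 11.00 in wild-type and at 9.84, 10.39 and 8.63 in Alb/AEG-1 tumours. Wild-type replicate 3 was highest and Alb/AEG-1 replicate 3 lowest, and both belong to the higher animal numbers. The difference was -0.68 ± 0.46 over all arrays, 0.24 among lower numbers and -1.88 among higher. It was -0.19 without Alb/AEG-1 replicate 3 and -0.33 without wild-type replicate 3. Cyp3a16, a fetal form, was at 2.50, 2.52 and 2.47 against 2.42, 2.53 and 2.47, with overlap.

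**Figure D3:**
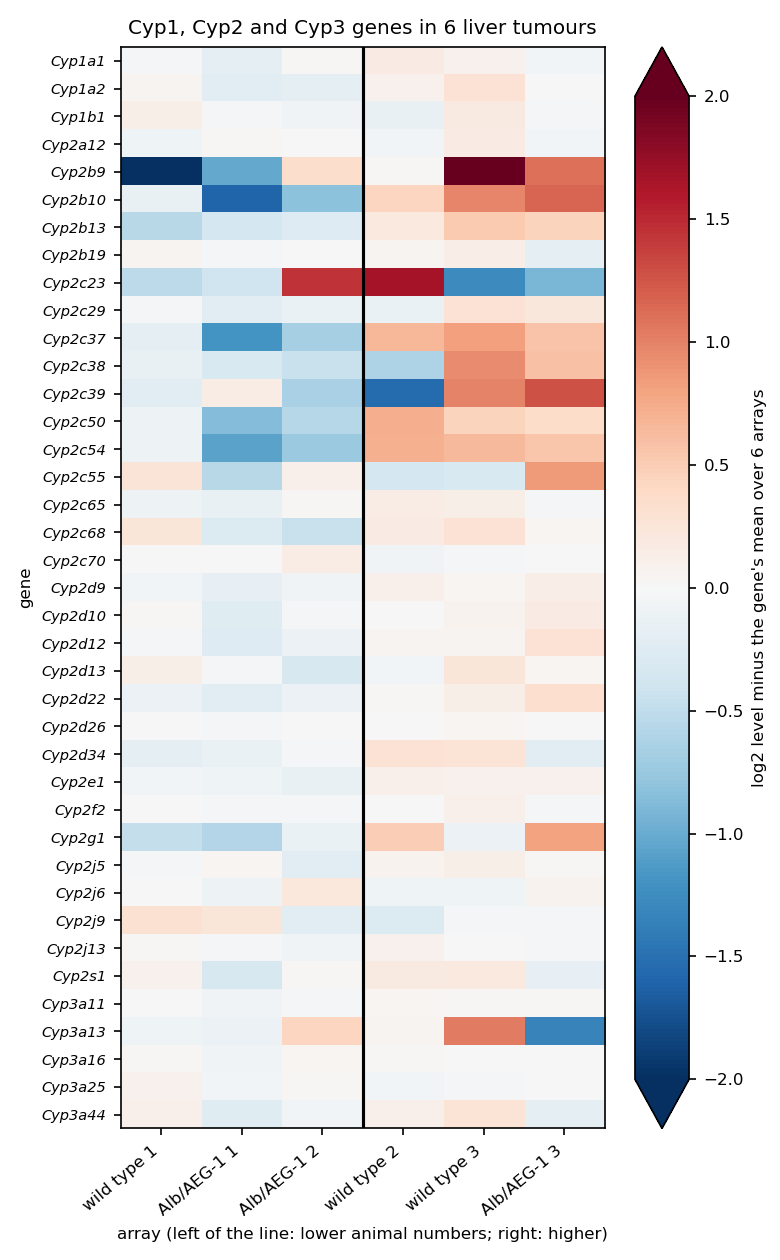
Level of each P450 gene on each array minus that gene's mean over the 6 arrays (log2, colours end at 2 in either direction), with lower animal numbers left and higher right of the line. Cyp2b10, Cyp2c37, Cyp2c50 and Cyp2c54 are blue in the left and red in the right block, Cyp2c23 is red in wild type 2 and Alb/AEG-1 2, and the Cyp2d genes are paler than these.

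Variation between animals was uneven over the subfamilies. A span of at least 1 log2 between the lowest and highest tumour was found in 12 of the 39 genes (30.8%, beside 4.74% of all genes). Of these, 7 were Cyp2c genes (of 11) and 3 were Cyp2b genes (of 4), and the others were Cyp2g1 and Cyp3a13. No Cyp1, Cyp2d or Cyp2j gene reached that span. In lists described further on, it was reached by 29.2% of genes of other P450 families and 34.8% of receptors and regulators. The share was 38.5% for CAR and PXR responsive, 37.5% for periportal, 15% for pericentral and 38.5% for female-predominant genes. Among male-predominant, electron transfer and haem, and AHR responsive genes the shares were 23.1%, 12.5% and 0%. The median within-group SD was 0.79 log2 over the Cyp2b and 0.55 over the Cyp2c genes, 0.18 over the Cyp2d genes, 0.060 over the Cyp3a genes and 0.13 over all genes.

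In several genes the level went with the animal number. All 3 arrays of the higher numbers lay above all 3 of the lower in 12 of the 39 genes (30.8%, beside 8.3% of all genes), and below in 0 (beside 8.09%). These 12 were Cyp2b10, Cyp2b13, Cyp2c37, Cyp2c50, Cyp2c54, Cyp2d9, Cyp2d12, Cyp2d22, Cyp2d26, Cyp2e1, Cyp2g1 and Cyp3a11. Of them, only Cyp2b10, Cyp2b13, Cyp2c37, Cyp2c50, Cyp2c54 and Cyp2g1 had a span of at least 1 log2. The spans of Cyp2d26 and Cyp3a11 were 0.090 and 0.10 log2. In limma with genotype and number range as terms, the range term had an unadjusted p below 0.05 upwards in 9 genes (23.1%, beside 4.33% of all genes) and downwards in 0 (beside 4.41%). After adjustment over all probe sets 0 passed (beside 0% of all genes), with the smallest adjusted limma p at 0.152, for Cyp2b13. The genotype term of that model had an unadjusted limma p below 0.05 downwards in 6 genes (beside 3.45% of all genes) and upwards in 0 (beside 3.07%). The downward genes were Cyp2c68, Cyp3a44, Cyp2c50, Cyp2c54, Cyp2c37 and Cyp2s1. The median genotype term was -0.032 log2. Of 20 pericentral hepatocyte genes outside families 1 to 3, 8 (40%) lay wholly higher in the higher numbers and 1 wholly lower. Over all genes these shares were 8.3% and 8.09%. The range term had an unadjusted limma p below 0.05 upwards in 7 of these 20 and downwards in 3 (beside 4.33% and 4.41%). Among 16 periportal genes that count was 1 upwards and 5 downwards, and among 24 genes of other P450 families 5 and 3. Wholly higher and wholly lower were 2 and 3 of the periportal genes, and 3 and 1 of the other P450 genes.

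**Figure D4:**
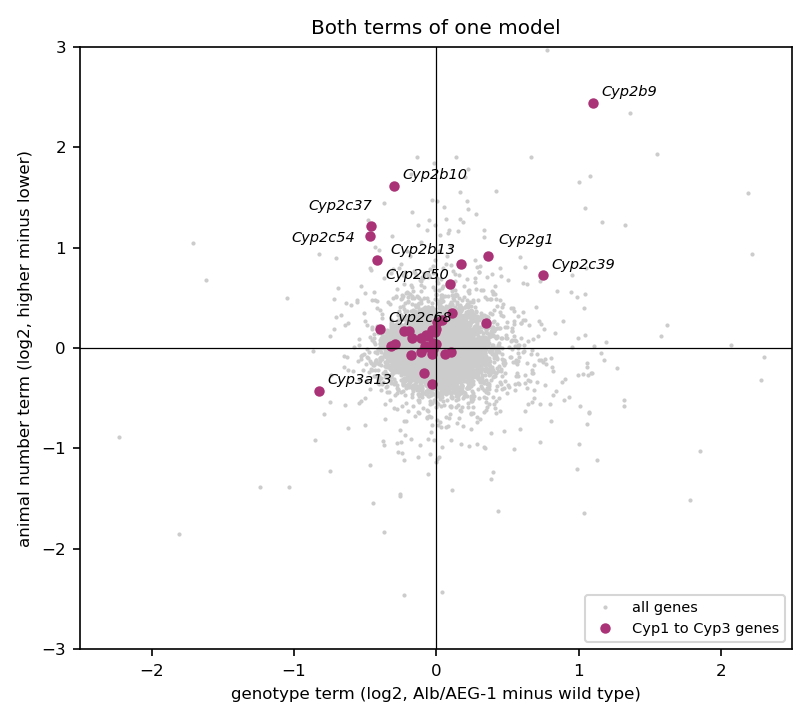
Genotype term against animal number term (log2) from a model with both, for all genes (grey; 4 lie outside the axes) and the 39 P450 genes (purple). Cyp2b9, Cyp2b10, Cyp2c37 and Cyp2c54 stand highest on the animal number axis, on which the lowest P450 gene is Cyp3a13 at -0.43.

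Among 23 measured receptors and regulators of these genes, 0 passed the adjusted threshold in limma, and 2 had an unadjusted p below 0.05 downwards and 1 upwards (beside 4.47% and 3.86% of all genes). Ppara, the fatty acid receptor gene, was at 10.20, 10.79 and 10.32 in wild-type and at 9.95, 9.72 and 9.94 in Alb/AEG-1 tumours (-0.56 ± 0.16 log2). Nfe2l2, the regulator of antioxidant enzymes, differed by 0.28 ± 0.10 and Stat5b, which carries the growth hormone signal behind sex-dependent P450 genes, by -0.23 ± 0.089. In all 3 the groups were separated. Nr1i3, which encodes CAR, was at 7.82, 8.91 and 9.23 in wild-type and at 7.72, 7.95 and 9.03 in Alb/AEG-1 tumours. Its genotype difference was -0.42 ± 0.43, 0.020 among lower and -0.035 among higher animal numbers, while the higher numbers stood 1.22 ± 0.12 above the lower (limma, adjusted p = 0.0839). Nr1i2, which encodes PXR, was at 6.58, 7.22 and 7.18 against 6.84, 6.72 and 7.39, with 0.62 ± 0.088 between the ranges. Ahr, the receptor gene behind Cyp1 induction, was between 7.90 and 8.22. The values of Nr1i3 and Nr1i2 are given after they were seen, and their part in the P450 values was not tested.

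**Figure D5:**
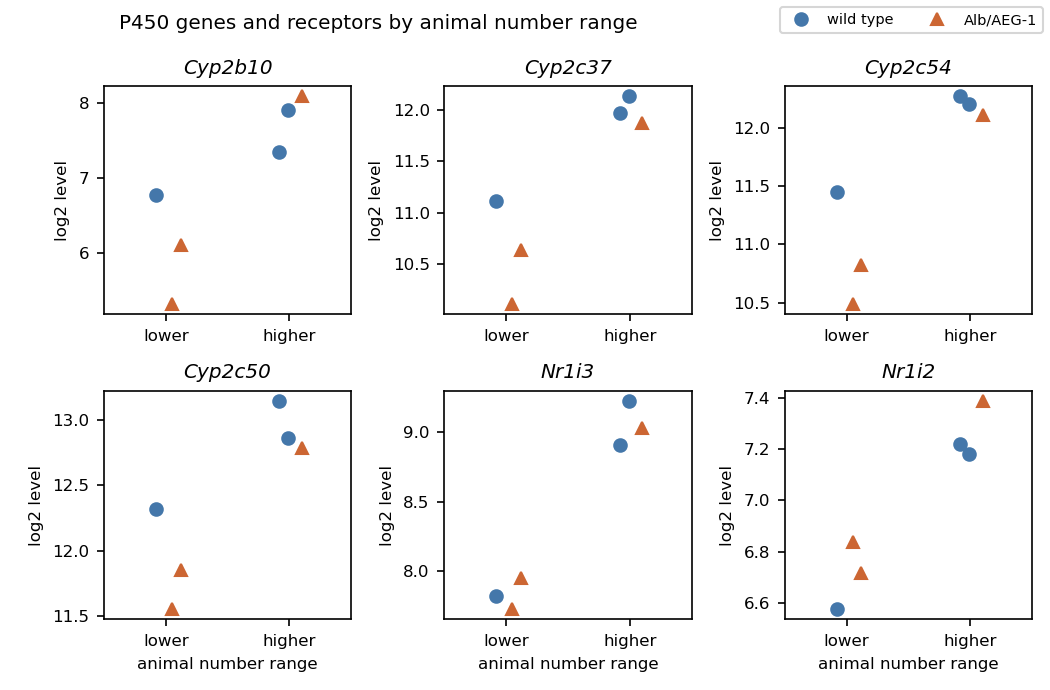
Log2 levels of Cyp2b10, Cyp2c37, Cyp2c54, Cyp2c50 and the receptor genes Nr1i3 (CAR) and Nr1i2 (PXR) in each tumour, by animal number range (circles wild type, triangles Alb/AEG-1; vertical axes do not start at 0). In each panel the 3 tumours of the higher numbers lie above the 3 of the lower, and in the 4 P450 panels the lower Alb/AEG-1 tumours lie below the lower wild-type tumour.

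Of 13 CAR and PXR responsive genes outside families 1 to 3, 1 was lower at an unadjusted limma p below 0.05 (beside 4.47% of all genes). This was Gadd45b, a stress response gene (-0.34 ± 0.14 log2). Gstm1, a glutathione transferase, differed by 0.21 ± 0.10 and Abcc2, a canalicular export pump, by -0.28 ± 0.13. All 3 arrays of the higher numbers lay above the lower in 4 of these 13 genes (beside 8.3% of all genes). Of 5 measured AHR responsive genes, 0 had an unadjusted limma p below 0.05 (beside 4.47% of all genes lower and 3.86% higher). Differences were -0.36 ± 0.21 for Xdh, -0.053 ± 0.11 for Aldh3a1 and 0.10 ± 0.24 for Nqo1. Among 16 genes for electron transfer and haem, Blvrb, a biliverdin reductase, differed by 0.32 ± 0.10, Alad, an enzyme of haem synthesis, by -0.56 ± 0.20 and Ppox, a later one, by 0.29 ± 0.13. Alas1, the rate-limiting enzyme of haem synthesis, was at 8.10, 11.88 and 11.36 in wild-type and at 10.72, 8.15 and 11.85 in Alb/AEG-1 tumours, higher in all 3 arrays of the higher numbers.

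The 24 measured genes of other P450 families had a median of -0.093 log2, with 15 below 0 (beside 52.2% of all genes) and 2 of them at an unadjusted limma p below 0.05 (beside 4.47%). Those were Cyp4f15 (-0.36 ± 0.13) and Cyp27b1, the vitamin D activating enzyme of kidney (-0.25 ± 0.10). Cyp8b1, the sterol hydroxylase of cholic acid synthesis, differed by -0.31 ± 0.15.

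Pericentral hepatocyte genes outside families 1 to 3 had a median of -0.036 log2 over 20 genes and periportal genes -0.0072 over 16. Slc1a4, an amino acid transporter, differed by 0.77 ± 0.19, Sp5, a Wnt target, by 0.34 ± 0.16 and Gulo, of vitamin C synthesis, by -0.31 ± 0.15. Glul, glutamine synthetase of the innermost pericentral cells, was at 11.67, 11.79 and 11.92 against 11.35, 11.66 and 12.16. Of the periportal genes, Hsd17b13, a lipid droplet enzyme, differed by 2.28 ± 0.69 (limma, adjusted p = 0.596), Aldh1b1 by 0.35 ± 0.19 and Asl, of the urea cycle, by -0.39 ± 0.23.

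Genes with sex-dependent expression in mouse liver had genotype medians of 0.014 log2 over 13 male-predominant and 0.032 over 13 female-predominant genes. The smallest p in the male list were those of Susd4 (-0.36 ± 0.18), Hsd3b5 (0.32 ± 0.26) and Ugt2b38 (0.67 ± 0.62). In the female list they were Prom1 (1.54 ± 0.47), Slc22a26 (-0.38 ± 0.13) and Fmo2 (-0.34 ± 0.16). Prom1 also counts among the markers of tumour and fetal liver given further on. Between the number ranges, the female-predominant list had 5 genes at an unadjusted limma p below 0.05 upwards and 0 downwards, and the male-predominant list 1 upwards and 5 downwards (beside 4.33% and 4.41% of all genes). Elovl3, a fatty acid elongase of the male list, was at 11.70, 8.04 and 10.12 in wild-type and at 11.50, 11.60 and 9.31 in Alb/AEG-1 tumours, high in all 3 lower numbers.

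Other transcripts went with the number ranges too. Of 16 clock genes and PAR bZIP factors, a list added after Nr1i3 was seen, 7 lay wholly higher and 3 wholly lower in the higher numbers (beside 8.3% and 8.09% of all genes). Tef, a PAR bZIP factor, was at 7.71, 9.50 and 8.67 in wild-type and at 8.09, 7.85 and 9.16 in Alb/AEG-1 tumours, and Npas2, a clock factor, at 6.42, 3.45 and 4.07 against 5.77, 6.22 and 3.74. The part of these genes in the P450 values was not tested, and the labels give no hour of collection.

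The tissue was liver by its defining transcripts. Alb was between 14.59 and 14.64 on all arrays, and the mean of 10 hepatocyte markers was 13.20 to 13.29 in wild-type and 13.23 to 13.32 in Alb/AEG-1 tumours. Macrophage markers had 10 of 10 differences above 0 (where 52.2% of all genes lay below 0), with list means of 7.05 to 7.46 against 7.37 to 8.02. The median difference of these 10 was -0.0084 among lower and 0.87 among higher animal numbers, where Alb/AEG-1 replicate 3 alone stood for its genotype. Markers of tumour and fetal liver had 7 of 8 above 0, with means of 4.99 to 5.12 against 6.28 to 8.04. The list means of endothelial cells were 6.40 to 6.55 against 6.47 to 6.62, of stellate cells 6.79 to 7.09 against 6.94 to 7.07, and of cholangiocytes 4.64 to 4.72 against 4.65 to 4.85. Those of neutrophils were 4.29 to 4.97 against 4.50 to 5.02, of T and NK cells 4.70 to 4.86 against 4.58 to 4.77, and of B cells 4.47 to 4.54 against 4.57 to 4.91. Below the array median, 5.83, lie 6 of 6 cholangiocyte, 5 of 6 neutrophil, 5 of 7 T and NK cell and 4 of 4 B cell genes. The part of cell composition in the P450 differences was not tested.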

How the data were processed

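RNA (5 µg) of 6 liver tumours was labelled with biotin for Affymetrix arrays, per the labels' protocols. The deposited values are log2 levels that the authors made with RMA, per the submitters' processing notes (version not given in the sources used here). RMA gives all arrays 1 distribution, which hides a change common to most genes. Array medians differed by at most 0.0289. The number of arrays limits the precision.

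Of 22690 probe sets, 64 controls were left out. Of the remaining 22626, 20380 had 1 gene symbol in the platform annotation, 691 several and 1555 none, and 20351 matched RefSeq (GRCm38.p6) by gene ID. Groups followed the genotype labels. Alb/AEG-1 was compared with wild type by limma 3.58.1 under R 4.3.3 (two-sided, 7.53 total degrees of freedom). Adjusted p-values are Benjamini-Hochberg values across all probe sets tested. An exact permutation test of 3 against 3 arrays cannot go below p = 0.1 and was not run. The title numbers, which differ between the arrays, were taken to stand for separate mice, though no label spells this out, so p-values measure the spread between these arrays, which may be partly technical. The fit was tested on simulated data with independent noise and no animal number range, so that test does not cover effects of the range. Windows were aligned with Biopython 1.88.

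The genes and lists were chosen with earlier results of these data known. Array values were given for up to 15 genes per direction with separated groups and an unadjusted p below 0.05 (filled to 5 by p), for 34 genes listed for their role (28 measured), and for genes whose probe sets disagree. Of each companion list the 3 genes of smallest p were named. Other genes were named after their values were seen.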

Additional observations from a re-analysis of the deposited data

How the results depend on the processing

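Over 16 alternatives (trend, robust moderation, quantile normalization, median centring, dim or cross-binding probe sets left out, other probe set choices, array weights, the animal number range, each array left out), 0 of the 39 genes passed an adjusted p of 0.05, with adjusted limma p between 0.301 and 1. The values being log2 already, no step for linear values was run. The median difference stayed below 0, from -0.16 to -0.019, also among lower or higher animal numbers alone, which were looked at after seeing the data. With dim probe sets left out 27 genes remained, of which 2 were lower at an unadjusted p below 0.05, 4 separated and 21 below 0. In that setting 259 of all 11461 probe sets were lower at that p and 1574 separated, with a median difference of 0.028. Array weights gave 7 genes lower (beside 1099 of 22626 probe sets). Leaving out 1 array gave 2 to 8 lower genes and 8 to 19 separated ones. The same fits gave 622 to 1303 lower and 5011 to 7043 separated among all 22626 probe sets. Over all probe sets, the count past the adjusted threshold was 1. It was 2 with limma-trend, 2 with the mean of probe sets per gene, 0 with the range term and 0 to 1 without 1 array. The sign of 24 genes held in every alternative. With the range term it turned in Cyp2b13 (0.18), Cyp2c23 (-0.028), Cyp2c29 (0.0060), Cyp2c38 (0.10), Cyp2d12 (0.038) and Cyp2d22 (0.11), with array weights in Cyp2b9 (-0.10), Cyp2g1 (-0.0076) and Cyp2j9 (0.014), with median centring in Cyp2d22 (0.0054), Cyp2j9 (0.0098) and Cyp3a25 (0.00013), with quantile normalization in Cyp2j9 (0.0021) and with the mean of probe sets in Cyp2d22 (0.0052). Without 1 array it turned in 15 genes: Cyp2a12 (-0.063 to 0.063), Cyp2b13 (-0.41 to 0.14), Cyp2b9 (-0.87 to 1.36), Cyp2c23 (-0.61 to 0.94), Cyp2c29 (-0.21 to 0.045), Cyp2c38 (-0.45 to 0.33), Cyp2c39 (-0.14 to 1.13), Cyp2c55 (-0.087 to 0.61), Cyp2d10 (-0.16 to 0.044), Cyp2d12 (-0.22 to 0.062), Cyp2d22 (-0.18 to 0.11), Cyp2g1 (-0.33 to 0.37), Cyp2j9 (-0.14 to 0.15), Cyp3a16 (-0.051 to 0.0043) and Cyp3a25 (-0.039 to 0.030). The cause was not tested. No paired analysis was possible because the labels give no replicate numbers shared between genotypes.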
